A study of Mus musculus with 10 samples.

Results

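MicroRNA precursor loci were followed in RNA sequencing libraries of mouse LSK cells, the Lin− Sca-1+ c-Kit+ bone marrow fraction that holds hematopoietic stem and early progenitor cells. The loci were chosen by their own counts: a locus was kept when its row in the table of raw counts carried a microRNA name other than that of a host transcript and when its counts summed to at least 10 over the 10 libraries, with the rows of the deleted miR-126 left out. This rule kept 317 of 1202 listed loci, from a table of 25078 genes. Of the loci not kept, 604 had 0 counts and 281 had from 1 to 9.

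The libraries came from 5 CM mice (Cbfb 56M/+, a conditional knock-in of the Cbfb-MYH11 fusion found in inv(16) acute myeloid leukemia, with Mx1-Cre) and from 5 CM/miR-126Δ/Δ mice, which carried the same knock-in and Mx1-Cre with both floxed copies of miR-126 deleted. Mice of the study were backcrossed to C57BL/6 and began 7 injections of poly(I:C) at 6 to 8 weeks of age, the labels do not give the sex of the 10 used here, and LSK cells were sorted 6 weeks after induction, before leukemia. Mx1-Cre answers to interferon and is not limited to blood cells, and every group carried the fusion, the Cre and the poly(I:C) exposure, so that the comparison is of miR-126 deletion in the presence of CM and not against wild-type cells. The RNA was depleted of ribosomal RNA and read as single-end reads of 51 bases, 1 library per mouse. Total counts on genes ran from 23649233 to 33202086 in CM mice and from 24141663 to 26615091 in CM/miR-126Δ/Δ mice.

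MicroRNAs are cut from long primary transcripts. Drosha and Dgcr8 release a hairpin in the nucleus, Xpo5 carries it to the cytoplasm, and Dicer1 trims it to a mature strand of about 22 bases that guides an Argonaute protein to messenger RNAs, mainly through the seed, bases 2 to 8. Many hairpins lie in introns of protein-coding genes, and others in non-coding transcripts of their own, often several together. Libraries of long RNA read the primary transcript, the intron or the exon over the hairpin, and mature microRNA is too short for them, so that every value below is a level of RNA over the precursor locus and not of the mature microRNA. In bulk RNA, fewer cells of a type and less RNA per cell cannot be told apart.

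RefSeq hairpins of GRCm38.p6, the build of the count table (mm10), were found for 275 of the 317 loci, 274 of them with the same start, end and strand, and 289 loci had at least 1 mature sequence. In all, 30 seeds were shared by 2 or more loci. The let-7 seed was the most frequent, with 9 loci, and its mature strands are shown because 3 of these loci were among those higher in CM/miR-126Δ/Δ. Capitals mark the seed.
let-7a-5p: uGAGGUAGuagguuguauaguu
let-7c-5p: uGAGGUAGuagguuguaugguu
let-7d-5p: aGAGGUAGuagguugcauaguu
let-7e-5p: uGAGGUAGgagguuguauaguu
let-7f-5p: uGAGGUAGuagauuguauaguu
let-7g-5p: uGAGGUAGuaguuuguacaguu
let-7i-5p: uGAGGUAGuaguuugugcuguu
miR-98-5p: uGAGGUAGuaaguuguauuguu
Against let-7a-5p, counting from 1 at the 5′ end, let-7c-5p differs by A19G, let-7e-5p by U9G and let-7f-5p by G12A, and let-7i-5p by 4 bases, all outside the seed. let-7f-5p is encoded by both Mirlet7f-1 and Mirlet7f-2.

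The next set holds the families known in blood cells on which the values below turn, namely miR-15a of the miR-15/16 family (4 loci with its seed), miR-17 and miR-20a of the miR-17-92 cluster (4 loci with their seed, with Mir93 and Mir106b), miR-181 (6 loci), and miR-196b, miR-142a and miR-21a.
miR-15a-5p: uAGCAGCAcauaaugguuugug
miR-17-5p: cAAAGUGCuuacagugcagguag
miR-20a-5p: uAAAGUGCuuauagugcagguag
miR-181a-5p: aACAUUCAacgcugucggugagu
miR-181b-5p: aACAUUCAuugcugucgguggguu
miR-196b-5p: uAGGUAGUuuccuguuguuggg
miR-142a-3p: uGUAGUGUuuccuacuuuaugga
miR-21a-5p: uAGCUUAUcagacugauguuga

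The last set holds the locus with the most counts and 3 intronic loci past the cutoffs of the study that have a mature sequence in the table.
miR-1894-3p: gCAAGGGAgagggugaagggag
miR-693-5p: cAGCCACAuccgaaaguuuuc
miR-1936: uAACUGACcugcugugaacuggc
miR-6368: cUGGGAAGcaguggaggggag

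Counts of the deleted precursor went with the labels. In CM mice 1 to 5, counts of the precursor Mir126a were 4, 5, 0, 2 and 3, and all 5 CM/miR-126Δ/Δ libraries were at 0, which allows up to 3 counts, or 0.113 to 0.124 CPM (counts scaled to library size), per library. The 10 LSK and stem cell markers all had counts and summed to 3078 to 3599 CPM in CM mice and 2926 to 3605 CPM in CM/miR-126Δ/Δ mice. Single markers moved within that sum. Hlf, a transcription factor of stem cells, and Mecom, another, had log2 fold changes of 0.31 and 0.24 (edgeR unadjusted p = 0.00797 and 0.0393). Thus 2 of the 10 were higher and 0 lower at an unadjusted p at or below 0.05, beside 3.29% and 3.32% of all genes. The erythroid list summed to 8.76 to 50.7 CPM in CM mice and 13.8 to 30.5 CPM in CM/miR-126Δ/Δ mice, with 2 of its 5 markers, Hba-a1 and Hbb-bt, at 0 counts in all libraries. The granulocyte and monocyte list (5 of 5 markers with counts) summed to 142 to 280 CPM in CM mice and 129 to 334 CPM in CM/miR-126Δ/Δ mice, with 1 of its 5, Itgam, lower in CM/miR-126Δ/Δ (log2 fold change −0.35, edgeR unadjusted p = 0.0316), and all 4 T cell markers together to at most 12.2 CPM. The part of these cells in the results below was not tested.

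Precursor loci took a small share of each library. The 317 loci together held 26843 counts, from 0.00763% to 0.0137% of a library, and between 262 and 293 of them had a count in a given library. The median locus had 32 counts over the 10 libraries, 144 loci had a count in every library and 96 reached 50 counts. Just inside the rule, 8 loci had a sum of exactly 10, among them Mir181a-1 (1, 0, 1, 1 and 1 counts in CM mice and 1, 1, 1, 2 and 1 in CM/miR-126Δ/Δ mice) and Mir760, and just outside it 16 loci had a sum of 9, among them Mir148b (0, 0, 0, 0 and 2, then 1, 0, 3, 0 and 3) and Mir320 (2, 2, 0, 2 and 0, then 2, 0, 1, 0 and 0). The threshold acts on the sum of both genotypes, so that a sparse locus with counts mostly in 1 genotype can pass it through that genotype, and the counts and medians of the loci below describe them without adding support to any difference.

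Most loci lay inside a gene. A gene on the same strand contained or overlapped 247 loci (77.9%), spread over 236 genes, a gene on the opposite strand alone overlapped 10, and 60 lay in no other gene of the table. The 744 listed loci with a same-strand gene passed the rule in 33.2% of cases, those with an opposite-strand gene alone in 9.52% of 105 and those with no overlapping gene in 17% of 353. An exact match of the hairpin to mm9, the build of the annotation at hand (GENCODE M1), placed 275 loci, of which 175 (63.6%) lay in a sense intron, 28 in a sense exon of a non-coding transcript, 18 in a sense coding exon, 7 in a sense UTR exon, 12 antisense to a gene (9 intronic) and 35 outside genes. Per kilobase of its length, the level over a locus was a median of 8.08% of the RPKM of its same-strand gene (interquartile range 4.34% to 15.4%, 245 loci). With reads of 51 bases and loci of 51 to 139 bases (median 80), an RPKM over a locus is approximate. A row of a small nucleolar RNA overlapped 5 of the loci, and whether their counts hold reads of that RNA was not tested.

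There were 6 loci that exceeded the RPKM of the gene around them, and 4 of these were among the 15 with the highest level. The highest of all was Mir1894, in Ppp1r10, which encodes a regulatory subunit of protein phosphatase 1 (chr17:35917889-35917969, plus strand, an exon of a non-coding transcript of that gene in GENCODE M1). It stood at 11.6, 21.6, 4.58, 12.8 and 17.1 CPM in CM mice 1 to 5 and at 10.6, 12.8, 7.44, 21.1 and 5.06 CPM in CM/miR-126Δ/Δ mice 1 to 5. Its level was 154 RPKM over the 10 libraries, 498% of that of Ppp1r10. The genotypes overlapped across nearly their whole range, with a log2 fold change (CM/miR-126Δ/Δ over CM, as in all that follows) of −0.25 (standard error 0.38, adjusted p = 0.891 by the quasi-likelihood test of edgeR after Benjamini-Hochberg adjustment). Mir6516 in the snoRNA host transcript Snhg20, Mir6935 in Actg1, the gene of cytoplasmic gamma actin, and Mir1949 in Snhg4 stood at 458%, 244% and 142% of their genes.

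The 15 highest loci held 49.2% of all counts of the 317. Mir703 (chr5:98475556-98475664, minus strand, antisense to Cfap299) and Mir682 (chr13:75645046-75645141, plus strand, in no other gene of the table) followed Mir1894 and were the steadiest. Mir703 was at 7.18 ± 0.781 CPM in CM mice and 6.51 ± 1.30 CPM in CM/miR-126Δ/Δ mice (SD, n = 5 each), with CM/miR-126Δ/Δ mouse 5 alone below 6 CPM, at 4.24. Mir682 was at 5.85 to 6.65 CPM in CM mice and at 4.84 to 5.89 CPM in CM/miR-126Δ/Δ mice. The groups met only where CM/miR-126Δ/Δ mouse 5 passed CM mouse 3, and the fold change was small (log2 −0.25, standard error 0.12, edgeR unadjusted p = 0.0506 and adjusted p = 0.757). DESeq2, the fit with genes of low count filtered out and the newer edgeR 4 form put it at or below 0.05, at an unadjusted p of 0.0445, 0.0480 and 0.0342. Mir3064, in the gene of the RNA helicase Ddx5, a cofactor of Drosha, was at 2.53 to 7.50 CPM over the 10 mice, and Mir5125, in the splicing gene Srrm2, at 1.48 to 4.01 CPM, both without a genotype difference (edgeR adjusted p = 0.959 and 0.977).

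**Figure D1:**
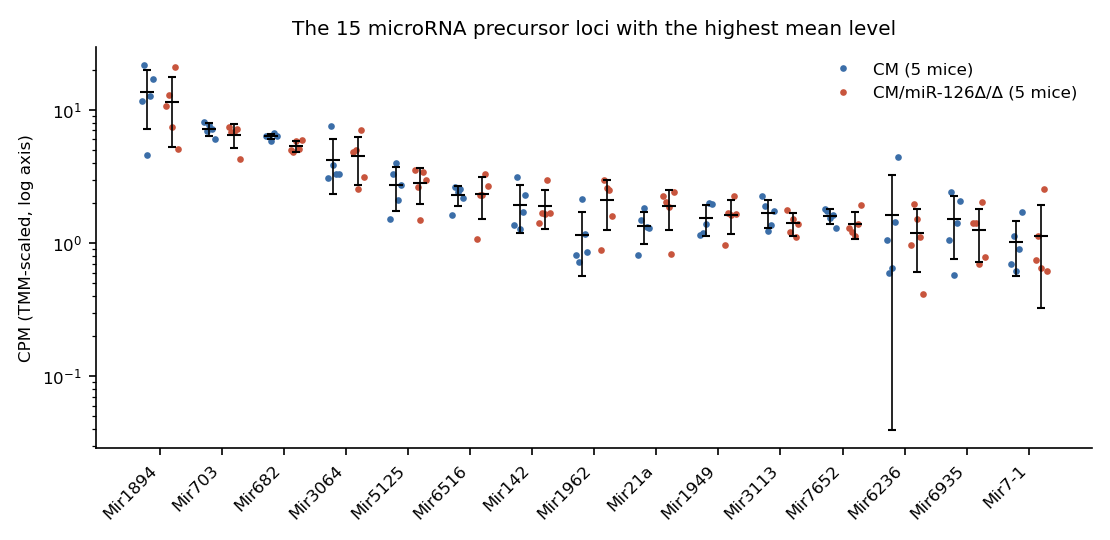
Level of the 15 precursor loci with the highest mean, in CPM on a log axis, with 1 point per mouse (blue, CM; red, CM/miR-126Δ/Δ) and black bars for mean ± SD, 5 mice each. The genotypes overlap for each of the 15 loci, and Mir703 and Mir682 are tighter than Mir1894.

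Several of the highest loci moved together across mice within each genotype. Mir1894 was lowest in CM mouse 3 and in CM/miR-126Δ/Δ mice 5 and 3 and highest in CM mouse 2 and CM/miR-126Δ/Δ mouse 4. Mir6935 had 0.573 CPM in CM mouse 3, and 0.697 and 0.782 CPM in CM/miR-126Δ/Δ mice 3 and 5, against 2.41 CPM in CM mouse 2 and 2.02 CPM in CM/miR-126Δ/Δ mouse 4. Mir7-1, in the gene of the RNA-binding protein Hnrnpk, had 0.614 to 1.72 CPM in CM mice and 0.618 to 2.53 CPM in CM/miR-126Δ/Δ mice, with the same 3 mice at the bottom. The summed level of 106 small nucleolar RNA rows, another class of short RNA, was also lowest in CM mouse 3 (547 CPM) and CM/miR-126Δ/Δ mouse 3 (555 CPM) and highest in CM/miR-126Δ/Δ mouse 4 (1069 CPM), although CM mouse 4 (932 CPM) and not mouse 2 led among CM mice. Of the B cell markers, Pax5 had 58, 119, 20, 106 and 84 counts in CM mice 1 to 5. In CM/miR-126Δ/Δ mice 1 to 5 it had 61, 83, 2, 110 and 1. Ms4a1, another B cell marker, had 17, 21, 7, 14 and 3 counts and then 36, 32, 0, 28 and 1. The part of small nucleolar RNA or of B cells in these levels was not tested.

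Across the 317 loci, 24 (7.57%) were higher in CM/miR-126Δ/Δ at an unadjusted p at or below 0.05 by edgeR's quasi-likelihood test, where 3.29% of all 18747 genes fitted were, and 2 (0.631%) were lower, where 3.32% of all genes were. No locus had an adjusted p under 0.05 with edgeR (the lowest was 0.514) or with DESeq2, which called 15 higher and 1 lower at the unadjusted threshold. Of all genes, 0.0107% passed the adjusted threshold. The cutoffs of the study (p at or below 0.01, at least 1.5-fold, RPKM of at least 1 in a genotype) were met by 7 loci, all higher, beside 0.192% of all genes, and by 0 lower, beside 0.096%. That count was 12 without CM mouse 3, 11 without CM/miR-126Δ/Δ mouse 1, 4 without CM mouse 5 and 3 without CM/miR-126Δ/Δ mouse 5, and 2 with genes of low count filtered out.

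The direction was uneven. Of the 317 loci, 233 (73.5%) had a log2 fold change above 0, where 47.4% of all genes had, and their median was 0.41, where that of all genes was −0.01. The 281 listed loci with 1 to 9 counts, which the rule leaves out, had a median of 0.19 with 59.8% above 0. The shift was not at the top of the range: the 15 highest loci had a median of −0.049, the 96 loci with at least 50 counts 0.15, and the 221 with 10 to 49 counts 0.53. Loci in a sense intron had a median of 0.43, those in a sense exon 0.18 and 0.27 was the median of those in no other gene of the table. The 106 small nucleolar RNA rows, also short, had a median of −0.01, while 81 rows of olfactory receptor genes, another set of rows with few counts, had 0.87, with 70.4% above 0.

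**Figure D2:**
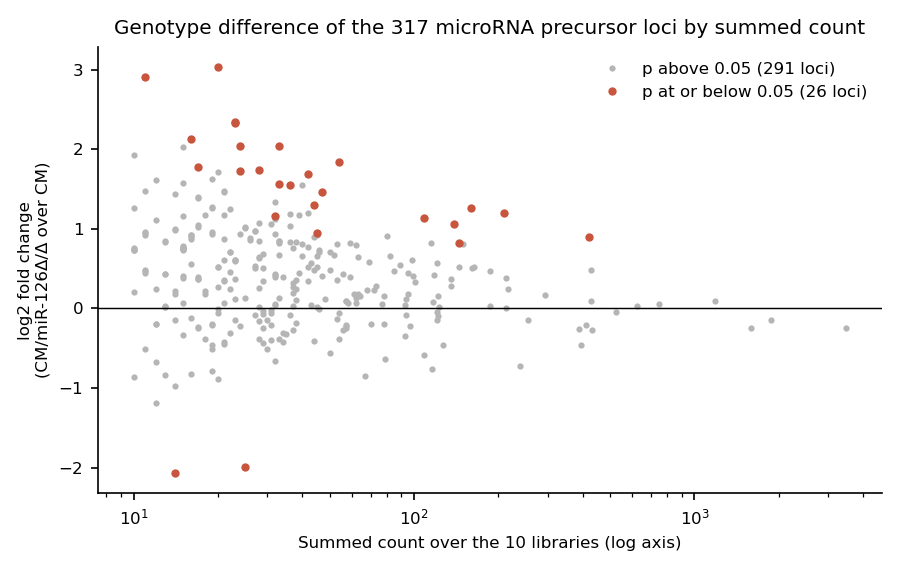
Log2 fold change (CM/miR-126Δ/Δ over CM) of each of the 317 loci against its summed count over the 10 libraries, on a log axis, with the 26 loci at an unadjusted p at or below 0.05 in red. The spread narrows with count, and 233 points lie above the line at 0.

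In CPM summed over loci, the 15 highest gave 49.7 ± 9.29 CPM in CM mice and 46.8 ± 10.8 CPM in CM/miR-126Δ/Δ mice (SD, n = 5 each). The other 302 gave 33.3, 49.1, 53.7, 44.6 and 42.6 CPM in CM mice 1 to 5 and 44.1, 62.8, 56.3, 66.7 and 57.1 CPM in CM/miR-126Δ/Δ mice 1 to 5. Of the 5 CM/miR-126Δ/Δ mice, 4 lay above every CM mouse, and mouse 1 lay among them. Rows of olfactory receptor genes, most of which blood cells are not known to use, may give a view of stray reads. Over 81 rows they were also higher on average in CM/miR-126Δ/Δ mice, at 4.05 to 8.28 CPM beside 3.24 to 5.22 CPM in CM mice. In these rows, as over the 302 loci, CM mouse 1 was lowest (3.24 CPM). CM/miR-126Δ/Δ mice 2 and 4 were the highest in both (8.28 and 7.72 CPM in olfactory receptor rows). The order of the other mice differed. Among CM/miR-126Δ/Δ mice, mouse 3 was lowest in olfactory receptor rows (4.05 CPM), and mouse 1 (6.01 CPM) lay above every CM mouse. RNA concentration, from 20.6 to 40.9 ng/µl in CM and 16.1 to 29.5 ng/µl in CM/miR-126Δ/Δ samples, and total counts, higher in 4 of 5 CM libraries than in any CM/miR-126Δ/Δ library, differed too. The part of stray reads, RNA concentration or total counts in the levels over the loci was not tested.

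**Figure D3:**
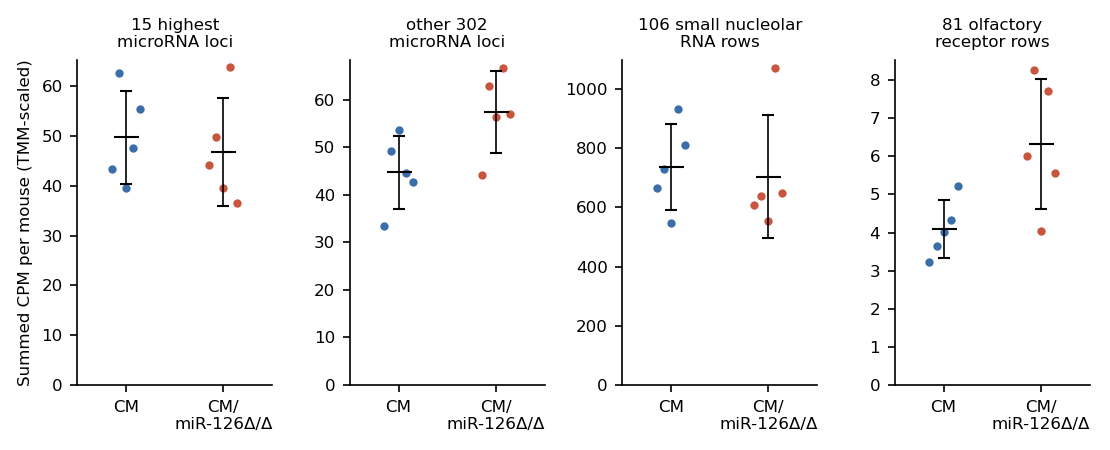
Summed CPM per mouse over the 15 highest loci, the other 302 loci, 106 small nucleolar RNA rows and 81 olfactory receptor rows, each on its own axis from 0, with black bars for mean ± SD (5 mice per genotype). The other 302 loci and the olfactory receptor rows are higher on average in CM/miR-126Δ/Δ mice, with overlap, and the other panels are level.

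The genes around the loci had a median change near 0. For 245 loci a same-strand gene was fitted, and 186 loci (75.9%) had a higher log2 fold change than that gene, with a median difference of 0.42. The 234 genes had a median log2 fold change of −0.00. At an unadjusted edgeR p at or below 0.05, 11 of the 234 were higher and 7 lower, beside 3.29% and 3.32% of all genes. The sum of these genes was 33106 ± 1013 CPM in CM mice and 33266 ± 1684 CPM in CM/miR-126Δ/Δ mice (SD, n = 5 each). Both the locus and its gene were at p at or below 0.05 in 5 cases, all higher, namely Mir15a in Dleu2, Mir1927 in Rabgap1l, Mir3108 in Zfhx3, Mir6368 in 2610307P16Rik and Mir7001 in Cd82.

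**Figure D4:**
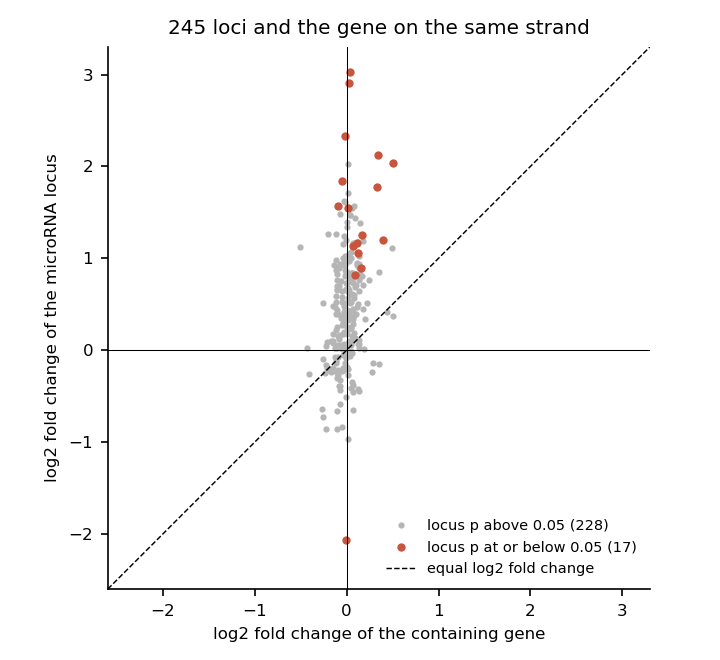
Log2 fold change of each of 245 precursor loci (vertical) against that of the gene on the same strand (horizontal), with the 17 loci at an unadjusted p at or below 0.05 in red and a dashed line of equal change. The points spread far more along the vertical axis than along the horizontal one, and 186 lie above the dashed line.

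In CPM, a complete separation of the genotypes was seen for 7 loci, all with every CM/miR-126Δ/Δ mouse above every CM mouse (2.21% of the loci, beside 0.571% of all genes), and 0 did so in the other direction (beside 0.528%). They were Mir1936, Mir196b, Mir326, Mir6400, Mir674, Mir693 and Mir7001. All had few counts. Mir693 lies in an intron of Xpo5, the exporter of precursor hairpins (chr17:46231531-46231619, plus strand), and had 0, 1, 1, 0 and 0 counts in CM mice and 5, 4, 2, 3 and 4 in CM/miR-126Δ/Δ mice. Per total count this was 10.7 times the CM level with a 95% counting interval of 2.56 to 95.1, while Xpo5 itself was at 140 CPM in CM mice and 143 CPM in CM/miR-126Δ/Δ mice (log2 fold change 0.03). Mir1936, in an intron of the inositol phosphate kinase gene Itpk1 (chr12:102684928-102685020, minus strand), had 0, 2, 4, 4 and 3 counts in CM mice and 6, 7, 9, 10 and 9 in CM/miR-126Δ/Δ mice (log2 fold change 1.84, standard error 0.53, edgeR adjusted p = 0.612).

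Mir6400, in Decr1, which encodes an enzyme of fatty acid oxidation, had 4 counts in CM and 19 in CM/miR-126Δ/Δ mice (5.65 times per total count, 95% counting interval 1.88 to 22.8). Mir7001, in an intron of the tetraspanin gene Cd82, had 3 and 13 counts (5.15 times, 1.42 to 28.2), and Mir326, in an intron of Arrb1, the gene of beta-arrestin, had 4 and 10 (2.97 times, 0.858 to 12.99). Mir674, outside genes, had 5, 4, 3, 4 and 1 counts in CM mice and 7, 6, 5, 5 and 5 in CM/miR-126Δ/Δ mice. Mir674 lost its call without CM mouse 2, 3, 4 or 5 or CM/miR-126Δ/Δ mouse 1, 2, 3 or 5, with log2 fold changes from 0.72 to 1.01. Mir326 was the only one of the 7 with an unadjusted edgeR p above 0.05, at 0.0512.

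The remaining loci past the cutoffs of the study overlapped between genotypes. Mir6368, in an intron of the non-coding gene 2610307P16Rik (chr13:28710781-28710873, minus strand), had 12, 10, 16, 15 and 18 counts in CM mice and 13, 29, 30, 39 and 27 in CM/miR-126Δ/Δ mice, with mouse 1 alone within the CM range. Its level was 0.489 ± 0.141 CPM in CM mice and 1.12 ± 0.395 CPM in CM/miR-126Δ/Δ mice (SD, n = 5 each; log2 fold change 1.20, standard error 0.33, edgeR unadjusted p = 0.00273 and adjusted p = 0.570), and its host went from 48.8 ± 8.16 to 64.2 ± 12.5 CPM. Mir1927, in an intron of Rabgap1l, which encodes a Rab GTPase-activating protein, was at 0.165 to 0.778 CPM in CM mice and 0.668 to 1.36 CPM in CM/miR-126Δ/Δ mice, and CM mouse 3 alone reached the other group (log2 fold change 1.26, standard error 0.40, edgeR adjusted p = 0.661).

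Of the 9 loci with the let-7 seed, 2 were past the cutoffs of the study, Mirlet7c-1 and Mirlet7f-1, and Mirlet7e was also higher at p at or below 0.05. Past the cutoffs and higher were 2.21% of all 317 loci and 0.192% of all genes, and higher at p at or below 0.05 were 7.57% and 3.29%. let-7 microRNAs are known to hold back proliferation and the fetal program of blood stem cells. Mirlet7c-1 (chr16:77599657-77599750, plus strand) had 6, 3, 2, 1 and 2 counts in CM mice and 4, 10, 6, 8 and 5 in CM/miR-126Δ/Δ mice, and only CM mouse 1 reached the other group. Its log2 fold change was 1.46 (standard error 0.48, edgeR unadjusted p = 0.00880 and adjusted p = 0.661). Mirlet7f-1 (chr13:48537829-48537917, minus strand) had 1, 2, 1, 1 and 0 counts in CM mice and 3, 1, 7, 5 and 3 in CM/miR-126Δ/Δ mice, and Mirlet7e (chr17:17830352-17830444, plus strand) 0, 2, 0, 1 and 3 against 3, 5, 1, 5 and 4. The groups overlapped in both, with log2 fold changes of 2.04 and 1.73 (standard errors 0.67 and 0.71, edgeR adjusted p = 0.661 and 0.746). Without CM mouse 1, 3 or 4 or CM/miR-126Δ/Δ mouse 2 or 4, Mirlet7e lost its call, with log2 fold changes from 1.41 to 1.68.

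The other 6 loci with the let-7 seed did not pass at p at or below 0.05. Mirlet7a-1, which shares a cluster with Mirlet7f-1 and Mirlet7d on chromosome 13, had 10, 7, 9, 6 and 4 counts in CM mice and 11, 5, 8, 6 and 6 in CM/miR-126Δ/Δ mice (log2 fold change 0.23). Mirlet7d, the third of that cluster, ranged from 0.165 to 0.491 CPM in CM and from 0.148 to 0.958 CPM in CM/miR-126Δ/Δ mice (log2 fold change 0.61). Loci of 1 cluster thus had unequal levels and fold changes, and the difference between them was not tested. Over the 9 loci, 8 had a log2 fold change above 0, near the 73.5% of all 317 loci, with Mirlet7i at −0.13, and the summed level was 0.759 to 1.62 CPM in CM mice and 1.15 to 2.39 CPM in CM/miR-126Δ/Δ mice, with overlap. Lin28a and Lin28b, which block maturation of let-7, were at 0.276 and 0.0448 CPM in CM and 0.504 and 0.0572 CPM in CM/miR-126Δ/Δ mice, near the detectable level.

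**Figure D5:**
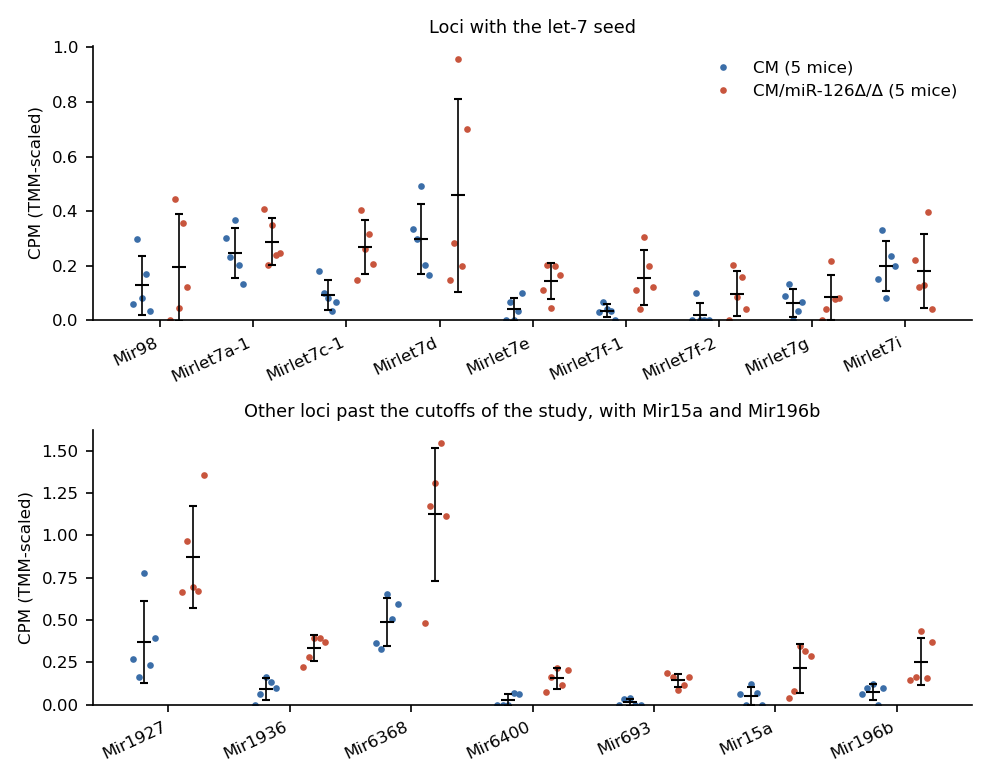
CPM per mouse of the 9 loci with the let-7 seed (top) and of the other 5 loci past the cutoffs of the study, with Mir15a and Mir196b (bottom), points per mouse and black bars for mean ± SD cut off at 0 (5 mice per genotype). Mir1936, Mir6400, Mir693 and Mir196b show no overlap between genotypes, and the let-7 loci all overlap.

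A list of loci known for stem and progenitor cells held 18 names, of which 17 were in the table, 7 were kept and 5 had 0 counts, among them Mir155 and Mir22. Of the 7, Mirlet7e and Mir196b were higher at p at or below 0.05 and 0 lower. Of all 317 loci, 7.57% were higher and 0.631% lower, and of all genes 3.29% and 3.32%. The median log2 fold change of the 7 was 0.78, where that of all 317 loci was 0.41. Mir196b, which lies in the Hoxa cluster next to Hoxa9 (chr6:52230081-52230165, minus strand), had 2, 3, 3, 0 and 3 counts in CM mice and 4, 4, 10, 4 and 9 in CM/miR-126Δ/Δ mice (log2 fold change 1.69, standard error 0.59, edgeR adjusted p = 0.726). Mir125a, next to Mirlet7e and known to expand stem cells, had 0, 4, 0, 0 and 5 counts in CM mice and 1, 1, 0, 1 and 0 in CM/miR-126Δ/Δ mice (log2 fold change −1.19). The pair thus had fold changes of opposite sign, over few counts. Mir221 and Mir222, which act on Kit, had log2 fold changes of 0.42 and 0.45, and Mir99a, beside Mirlet7c-1, 1.28 (edgeR unadjusted p = 0.0637). Summed over the 7 loci, the level was 0.672 to 0.819 CPM in CM mice and 0.865 to 1.59 CPM in CM/miR-126Δ/Δ mice. Mir221 was the largest part. These ranges did not overlap, but the 7 loci were kept by their counts in these same mice. Mirlet7e passed the rule only through its counts in CM/miR-126Δ/Δ mice, so that the gap adds no support to a difference. The sums of the other lineage lists overlapped between genotypes. They were 3.78 to 7.27 against 4.27 to 6.10 CPM (myeloid), 1.48 to 2.48 against 1.82 to 4.32 CPM (lymphoid) and 0.0661 to 0.246 against 0.0807 to 0.371 CPM (erythroid and megakaryocyte).

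Among 8 loci known for myeloid cells, 5 were kept and none was called in either direction by edgeR at an unadjusted p at or below 0.05 (median log2 fold change −0.14). Mir142, a blood-wide microRNA, was at 1.27 to 3.11 CPM in CM mice and 1.41 to 2.97 CPM in CM/miR-126Δ/Δ mice. Mir21a, which lies 103 bases past the end of Vmp1 in the table (chr11:86584067-86584158, minus strand), had 0.817, 1.49, 1.84, 1.31 and 1.29 CPM in CM mice and 2.26, 2.02, 1.87, 0.831 and 2.43 CPM in CM/miR-126Δ/Δ mice. CM/miR-126Δ/Δ mice 1, 2, 3 and 5 were thus above every CM mouse and mouse 4 was not (log2 fold change 0.49, edgeR adjusted p = 0.765). The Mir23a, Mir27a and Mir24-2 cluster on chromosome 8 had log2 fold changes of −0.14, −0.46 and −0.76, none called, with Mir24-2 at 13, 21, 6, 19 and 19 counts in CM and 1, 16, 2, 14 and 5 in CM/miR-126Δ/Δ mice. Mir223, the granulocyte microRNA, had 0 counts in all 10 libraries.

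Of 11 loci known for lymphoid cells, 9 were kept. Of these, 1 was called higher and 0 lower, beside 7.57% and 0.631% of all 317 loci and 3.29% and 3.32% of all genes. Their median log2 fold change was 0.53, where that of all 317 loci was 0.41. The called locus was Mir181a-2, antisense to an intron of Nr6a1 (chr2:38852735-38852810, plus strand), with 0, 1, 0, 1 and 2 counts in CM mice and 3, 0, 10, 1 and 5 in CM/miR-126Δ/Δ mice. CM/miR-126Δ/Δ mouse 3 gave the most (log2 fold change 2.34, standard error 0.94, edgeR adjusted p = 0.746), and the log2 fold change was 1.57 without it and 2.04 without CM mouse 1, neither called. Its neighbour Mir181b-2 had 2, 1, 14, 2 and 6 counts in CM and 1, 5, 11, 6 and 5 in CM/miR-126Δ/Δ mice, with a log2 fold change of 0.36. All 6 loci with the miR-181 seed had log2 fold changes above 0 (73.5% of all 317 did), from 0.02 to 2.34, and their sum overlapped between genotypes (0.182 to 0.737 against 0.260 to 1.35 CPM). Of the erythroid and megakaryocyte list, Mir144 and Mir107 were kept and neither was called.

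The miR-17-92 cluster, an oncogenic cluster active in early B and myeloid cells, gave 5 kept loci within 721 bases of chromosome 14. Mir17 was at 0.362 ± 0.0555 CPM in CM mice and 0.544 ± 0.152 CPM in CM/miR-126Δ/Δ mice (SD, n = 5 each; log2 fold change 0.57, edgeR adjusted p = 0.765). Mir18, Mir19a, Mir20a and Mir19b-1 had log2 fold changes of 0.53, 0.91, 0.50 and −0.24, and the row of the host transcript Mir17hg, which starts at the end of Mir19b-1, had 0.28. None passed at p at or below 0.05. Mir15a and Mir16-1, cut from the transcript Dleu2 on chromosome 14 and known to act on Bcl2, had unequal fold changes, a difference that was not tested. Mir15a had 2, 0, 3, 2 and 0 counts in CM mice and 1, 2, 8, 8 and 7 in CM/miR-126Δ/Δ mice (log2 fold change 2.04, standard error 0.77, edgeR adjusted p = 0.746), and Mir16-1 had 0, 3, 4, 0 and 1 and then 0, 1, 2, 0 and 6 (log2 fold change 0.37). Dleu2 went from 4.52 ± 1.35 to 6.42 ± 1.17 CPM (log2 fold change 0.51, standard error 0.19, edgeR unadjusted p = 0.0196 and adjusted p = 0.746).

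The remaining 11 loci with higher levels lay in a gene on the same strand in 9 cases. Mir1962, in an intron of the phosphatase gene Ptpre and the only one of the 15 highest loci to be called, was at 0.817, 0.727, 2.13, 1.18 and 0.858 CPM in CM mice and 0.890, 2.99, 2.57, 2.49 and 1.61 CPM in CM/miR-126Δ/Δ mice. CM mouse 3 and CM/miR-126Δ/Δ mouse 1 lay in the range of the other group (log2 fold change 0.89, standard error 0.36, edgeR adjusted p = 0.746), and the call was lost without CM mouse 1, 2 or 5 or CM/miR-126Δ/Δ mouse 2 or 3 (0.73 to 0.82). Mir6374, in an intron of Tet3, a DNA demethylase gene, had 4, 5, 6, 13 and 10 counts and then 9, 20, 14, 11 and 17 (log2 fold change 1.14). Mir12180 in Osbpl8, Mir1b in Mib1, Mir466q in Tnik, Mir3108 in Zfhx3, Mir6900 in Ndufa10, Mir6959 in Sbf1 and Mir1930 in Ube2g2 had log2 fold changes from 0.82 to 2.91. Mir324 and Mir3620, on the strand opposite to Acadvl and Alas2, had 1.73 and 1.29. Without CM/miR-126Δ/Δ mouse 5 the calls of Mir12180, Mir1b, Mir324, Mir466q, Mir1930, Mir3108 and Mir6959 were lost (0.69 to 1.57). Those of Mir1b, Mir3108 and Mir3620 were lost without CM mouse 1 (0.67 to 1.47). Mir1930 also lost its call without CM mouse 2, 4 or 5 or CM/miR-126Δ/Δ mouse 1, 3 or 4. Mir466q did so without CM mouse 2, 3, 4 or 5 or CM/miR-126Δ/Δ mouse 2 or 3. Mir3108 did so without CM mouse 5 or CM/miR-126Δ/Δ mouse 2, and Mir3620 without CM mouse 5 or CM/miR-126Δ/Δ mouse 2 or 4. The same held for Mir1b without CM/miR-126Δ/Δ mouse 4 and for Mir6959 without CM mouse 4. Mir6900 rested on 1 count in CM and 10 in CM/miR-126Δ/Δ mice, a ratio of 11.9 per total count with a 95% counting interval of 1.69 to 516.

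The pair of loci lower in CM/miR-126Δ/Δ was as sparse. Mir6998, in an intron of Fubp3, had 3, 1, 4, 0 and 4 counts in CM mice and 0, 1, 0, 1 and 0 in CM/miR-126Δ/Δ mice (0.198 times per total count, 95% counting interval 0.0215 to 0.890). Mir8120, outside genes, had 2, 9, 0, 5 and 5 counts and then 2, 1, 1, 0 and 0 (log2 fold change −1.98, standard error 0.86, edgeR adjusted p = 0.748). In both, at least 1 CM mouse had 0 counts and the groups overlapped. Mir6998 lost its call without CM mouse 1, 3 or 5 or CM/miR-126Δ/Δ mouse 1, 3 or 5 (−2.01 to −1.73), and Mir8120 without CM mouse 2, 4 or 5 or CM/miR-126Δ/Δ mouse 2, 4 or 5 (−2.07 to −1.52).

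Host transcripts that carry a microRNA name were left out by the rule and gave longer rows for nearby regions. Of the 10 listed, 4 had 0 counts, 2 were higher at an unadjusted edgeR p at or below 0.05 and 0 lower, beside 3.29% and 3.32% of all genes. Mir99ahg, whose row ends 40507 bases before Mir99a and Mirlet7c-1 on chromosome 16, had 122, 132, 238, 207 and 165 counts in CM mice and 182, 301, 265, 254 and 286 in CM/miR-126Δ/Δ mice. It went from 6.04 ± 2.41 to 10.5 ± 2.22 CPM (SD, n = 5 each; log2 fold change 0.80, standard error 0.24, edgeR unadjusted p = 0.00471 and adjusted p = 0.640). CM mice 3 and 4 alone reached the other group. Mir155hg was at 1.08 ± 0.389 CPM in CM mice and 1.77 ± 0.776 CPM in CM/miR-126Δ/Δ mice (log2 fold change 0.71, edgeR unadjusted p = 0.0448 and adjusted p = 0.749), while Mir155 itself had 0 counts. Mir155 lies within the span of Mir155hg, and whether reads over both were dropped in counting is not given in the sources used here.

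Few genes of the microRNA pathway passed the test. Of 24 listed genes that cut, export, load or modify microRNAs, 1 was higher and 1 lower at an unadjusted edgeR p at or below 0.05, beside 3.29% and 3.32% of all genes. Ago4, an Argonaute, had a log2 fold change of 0.18 (edgeR unadjusted p = 0.0435, adjusted p = 0.748), and Srrt, which links capped transcripts to Drosha, one of −0.19 (edgeR unadjusted p = 0.0428, adjusted p = 0.748). Drosha stood at 103 CPM in CM mice and 102 CPM in CM/miR-126Δ/Δ mice, Dgcr8 at 77.9 and 79.6, Xpo5 at 140 and 143, Dicer1 at 176 and 183 and Ago2 at 198 and 212 CPM, with log2 fold changes between −0.01 and 0.10, none of which passed the test. Ago3 (0.23), Ddx5 (−0.17), Ran (−0.13) and Rcc1 (−0.12) did not pass it either.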

How the data were processed

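The authors prepared libraries with KAPA RNA HyperPrep and RiboErase, trimmed reads with Trimmomatic and fastp, aligned them with TopHat2 to mm10 and deposited raw counts per RefSeq gene from HTSeq (0.6.1p1 per the labels). The overlap mode and strand setting are not given in the sources used here, so that reads over a locus and an exon of its gene may have been dropped or given to either, and reads of a gene on the other strand may be included. A second deposited table holds those counts divided by 1 constant per library and was not used.

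Counts of 18747 genes with at least 1 count were fitted with edgeR 4.0.16 (TMM factors, quasi-likelihood test in the edgeR 3 form, genotype only, Benjamini-Hochberg over all genes). The fit was tested on simulated data. Changes were planted there only in genes with more counts than most of the loci, so that the test does not cover sparse loci. CPM and RPKM were computed with TMM-scaled library sizes. Standard errors are the log2 fold change divided by the root of F. Single loci and genes were also compared by two-sided exact permutation over mice, with values not listed for the loci. Of the listed genes called by edgeR, Hlf and Mir99ahg were also under 0.05 (permutation p = 0.0159 and 0.0238). Mecom, Itgam, Mir155hg, Ago4 and Srrt were not (permutation p = 0.0952, 0.0635, 0.119, 0.0635 and 0.0952). Each library is 1 mouse. A library with 0 counts allows up to 3 counts, 0.0904 to 0.127 CPM. Counting intervals (95%, exact) cover counting error only. DESeq2 1.42.0, RLE factors, other filters, a replicate block and leaving out each mouse were tried.

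Named loci were the 15 highest by mean CPM, every locus with p at or below 0.05 or with genotypes that do not overlap, and those on lists for blood lineages, with their neighbours within 10 kb. The loci and lists were chosen with earlier results of these data known.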

Additional observations from a re-analysis of the deposited data

Results flagged for a closer look

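In 124 groups of 5 mice, 12 held a mouse far from the other 4 by Dixon's test, where about 1 in 20, or 6.2, are flagged by chance. Of the loci with many counts, Mir3064 was at 7.50 CPM in CM mouse 2 (next 3.85 CPM), Mir6236 at 4.42 CPM in CM mouse 5 (next 1.44 CPM), Mir142 at 2.97 CPM and Mir7-1 at 2.53 CPM in CM/miR-126Δ/Δ mouse 4 (next 1.70 and 1.13 CPM), and Mir703 at 4.24 CPM in CM/miR-126Δ/Δ mouse 5 (next 6.79 CPM). Mir6236 lies in no other gene of the table, and its 134 counts in that mouse compare with 16 to 43 in the other CM mice. The others rested on at most 5 counts. Mir181a-1 and Mir326 were at 0 CPM in CM mouse 2 and CM mouse 3, Mir181a-1 at 0.0792 CPM in CM/miR-126Δ/Δ mouse 4, Mir181b-1 at 0.165 CPM and Mir674 at 0.0330 CPM in CM mouse 5, Mir466q at 0.151 CPM in CM mouse 1 and Mir6900 at 0.0336 CPM in CM mouse 4.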

How the results depend on the processing

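Counts of loci at an unadjusted p at or below 0.05 that were higher, lower, and past the cutoffs of the study were 24, 2 and 7 with edgeR. They were 15, 1 and 4 with DESeq2, and 6, 1 and 2 after filterByExpr, which kept 45 of the 317 loci and left out 20 of the 26 called. Loci with at least 50 counts gave 7, 0 and 3, and RLE factors gave 1 lower. Leaving out each mouse in turn gave 18 to 33 higher, 0 to 2 lower (0 without CM mouse 5, 2 without CM/miR-126Δ/Δ mouse 3 and 1 without any other) and 3 to 12 past the cutoffs. In all, 10 called loci kept p at or below 0.05 in every alternative in which they were fitted: Mir15a, Mir1927, Mir1936, Mir196b, Mir6368, Mir6374, Mir6400, Mir693, Mirlet7c-1 and Mirlet7f-1. Of 422 refits of called loci, 85 lost the call and 0 changed sign. An uncalled locus gained a call in 9 refits, of Mir682 (which is the 1 lower with DESeq2 and filterByExpr), Mir326 and Mir21a (0.69 without CM/miR-126Δ/Δ mouse 4). The lowest adjusted p of a locus over all alternatives was 0.155, with DESeq2. The median log2 fold change of the loci was 0.33 to 0.54 with each mouse left out, 0.11 after filterByExpr and −0.049 over the 15 highest loci. Summed CPM fell from 94.4 to 80.8 in CM without Mir1894, and to 77.4 in CM and from 104 to 79.7 in CM/miR-126Δ/Δ over loci with at least 50 counts. In 15 refits of uncalled loci the sign changed, and over the mice left out in turn the log2 fold change ran from −0.26 to 0.18 for Mir142, −0.086 to 0.25 for Mir5125, −0.12 to 0.22 for Mir6516, −0.11 to 0.41 for Mir3064, −0.040 to 0.25 for Mir1949, −0.35 to 0.45 for Mir7-1 and −0.71 to 0.36 for Mir6236. The cause of these changes was not tested.

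The main fit did not treat same-numbered mice as pairs, and the labels do not say whether they were. Their sample numbers were next to each other. Their correlations of deviations from the genotype means were 0.179, 0.161, 0.429, 0.303 and −0.00371, so that 1 pair was under 0.1. The mean was 0.214 beside −0.0542 for other pairs, and 5 of 10 libraries were closest to their own number. These values do not decide whether the mice were paired. With the replicate number as a block, 16 loci were higher, 0 lower and 6 past the cutoffs, and Mir6516 was at −0.025. The block ended 11 calls, those of Mir181a-2, Mir1930, Mir3108, Mir324, Mir466q, Mir674, Mir6900, Mir6959, Mir6998, Mir7001 and Mir8120. Depth limits most loci, since 221 of the 317 had 10 to 49 counts over 10 libraries.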
